A study of Mus musculus with 16 samples.

Results

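The genes described here are 36 genes of glycolysis and of the response to low oxygen, followed in mIMCD3 cells given doxycycline (DOX) or its vehicle, dimethyl sulfoxide (DMSO). They were taken by gene symbol from a fixed list of 14 glycolytic enzyme genes, 13 target genes of hypoxia-inducible factor (HIF), and 9 genes for glucose and lactate transport, for pyruvate handling, for the control of glycolysis and for *Hif1a* itself. Among the 54393 genes of the count table, 13234 reached a CPM (a count scaled to the total of its library) of 1 in 4 or more of the 16 libraries and were tested. Of the 36 listed genes, 34 were among them. *Slc2a3*, a glucose transporter, and *Car9*, a carbonic anhydrase induced by HIF, did not reach that level, with at most 0.424 and 0.735 CPM in any library, and were not tested.

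mIMCD3 is a mouse kidney epithelial line from the inner medulla of an SV40 transgenic animal. All cells were grown for 10 days on permeable filters and then received fresh medium every day with 2 µg/mL DOX or with DMSO, for 3 days or for 6 days. This gave 4 groups of 4 libraries: DMSO at 3 days, DOX at 3 days, DMSO at 6 days and DOX at 6 days, all from this 1 line and with polyadenylated RNA as the template. The labels number the replicates from 1 to 4 and do not say whether they came from separate cultures, so the p-values measure only the spread between these libraries. DOX is a tetracycline antibiotic that serves as the inducer of many inducible gene systems, and the study asked what it does by itself to the transcriptome of these cells.

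Glycolysis turns glucose into pyruvate in the cytosol, and most cells send that pyruvate either into mitochondria or, through lactate dehydrogenase, out of the cell as lactate. HIF is a transcription factor made of an oxygen-labile alpha subunit, such as HIF-1α, and a stable partner. With oxygen present, prolyl hydroxylases of the EGLN family mark the alpha subunit for breakdown. When oxygen is low the subunit persists, binds DNA at the core sequence ACGTG or GCGTG, and raises many glycolytic enzymes together with genes such as *Vegfa* and *Adm*. The inner medulla of the kidney is poorly supplied with oxygen, and its collecting duct cells rely heavily on glycolysis.

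Total estimated counts were 16933343 to 23960860 per library, and 3 counts, the upper limit that a count of 0 allows, corresponded to 0.125 to 0.177 CPM (counting error only). Correlations of log2 CPM between libraries of a group were 0.981 to 0.992. Among the markers of other cells, none of 6 fibroblast genes reached the level for testing. Of 5 leukocyte genes, *Cd68* and *Csf1r* were tested and fell in DOX-treated cells at both times, with a summed level of the list of 30.2 to 37.4 CPM in DMSO and 16.7 to 23.5 CPM in DOX, while *Adgre1* stayed at or below 0.0546 CPM and *Ptprc* at or below 1.35 CPM. The summed endothelial list of 5 genes lay between 1.49 and 3.79 CPM in every library. All 6 kidney epithelium markers were tested, with sums of 2632 to 3034 CPM in DMSO and 2028 to 2327 CPM in DOX, and 3 of 6 fell at each time. Of 5 markers of collecting duct principal cells, with sums of 1.76 to 4.10 CPM in DMSO and 1.04 to 2.09 CPM in DOX, the defining gene *Aqp2* was at most 0.452 CPM and only *Hsd11b2* was tested. It fell at 6 days, by 1.44 on the log2 scale, from 0.969 ± 0.275 to 0.345 ± 0.236 CPM (edgeR adjusted p = 0.012). Both means are below the filter level of 1 CPM. A gene at that limit can pass the filter through its higher group alone, so this fall carries little weight. The part that these cell-type markers have in the results below was not tested, and in bulk RNA fewer cells with a transcript and less transcript per cell cannot be told apart.

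In DMSO-treated cells the enzymes of the lower, energy-yielding steps of glycolysis were among the most abundant transcripts. Levels between genes were compared in TPM, which scales a count by transcript length as well as by library total. Over the 8 DMSO libraries *Gapdh*, glyceraldehyde-3-phosphate dehydrogenase, averaged 4247 ± 315 TPM (SD, n = 8) and stood at rank 33 of all genes. It was followed by the aldolase *Aldoa* at 2424 ± 202 TPM and the phosphoglycerate kinase *Pgk1* at 1686 ± 109 TPM. The lactate dehydrogenase *Ldha*, the phosphoglycerate mutase *Pgam1* and the triosephosphate isomerase *Tpi1* had 1426 ± 156, 1409 ± 143 and 1376 ± 138 TPM, and did not differ beyond their spread. The pyruvate kinase *Pkm* had 1229 ± 100.5 TPM and the enolase *Eno1* 908 ± 55.9 TPM.

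The first, committing steps were carried by far less RNA. The phosphofructokinase genes ran from *Pfkl* at 218 ± 19.2 TPM over *Pfkp* at 89.4 ± 6.46 TPM to *Pfkm* at 21.7 ± 2.67 TPM. The hexokinase *Hk1* had 93.7 ± 4.86 TPM and its paralogue *Hk2* 38.5 ± 3.47 TPM, while the glucose transporter *Slc2a1* stood at 186.9 ± 22.6 TPM. Among the HIF targets the mitophagy receptor *Bnip3* was highest at 681 ± 62.8 TPM and the carbonic anhydrase *Car12* lowest of the tested genes at 6.28 ± 0.788 TPM. HIF-1α itself, encoded by *Hif1a*, had 40.9 ± 4.14 TPM, next to the lactate exporter *Slc16a3* at 40.4 ± 4.27 TPM and the prolyl hydroxylase *Egln3* at 40.3 ± 2.95 TPM, and these neighbours did not differ beyond their spread. In the order of all 34 genes, 15 of the 33 neighbouring pairs were closer than the larger of their SDs. Read sharing limits some of these levels. Of the 31-base words of the *Gapdh* transcripts 26.5% also occur in the gene *Gm7336*, of those of *Eno1* 27.8% in *Eno1b*, and of those of *Bnip3* 46.7% in *AC160336.1*, and each of these copies held counts of its own.

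**Figure D1:**
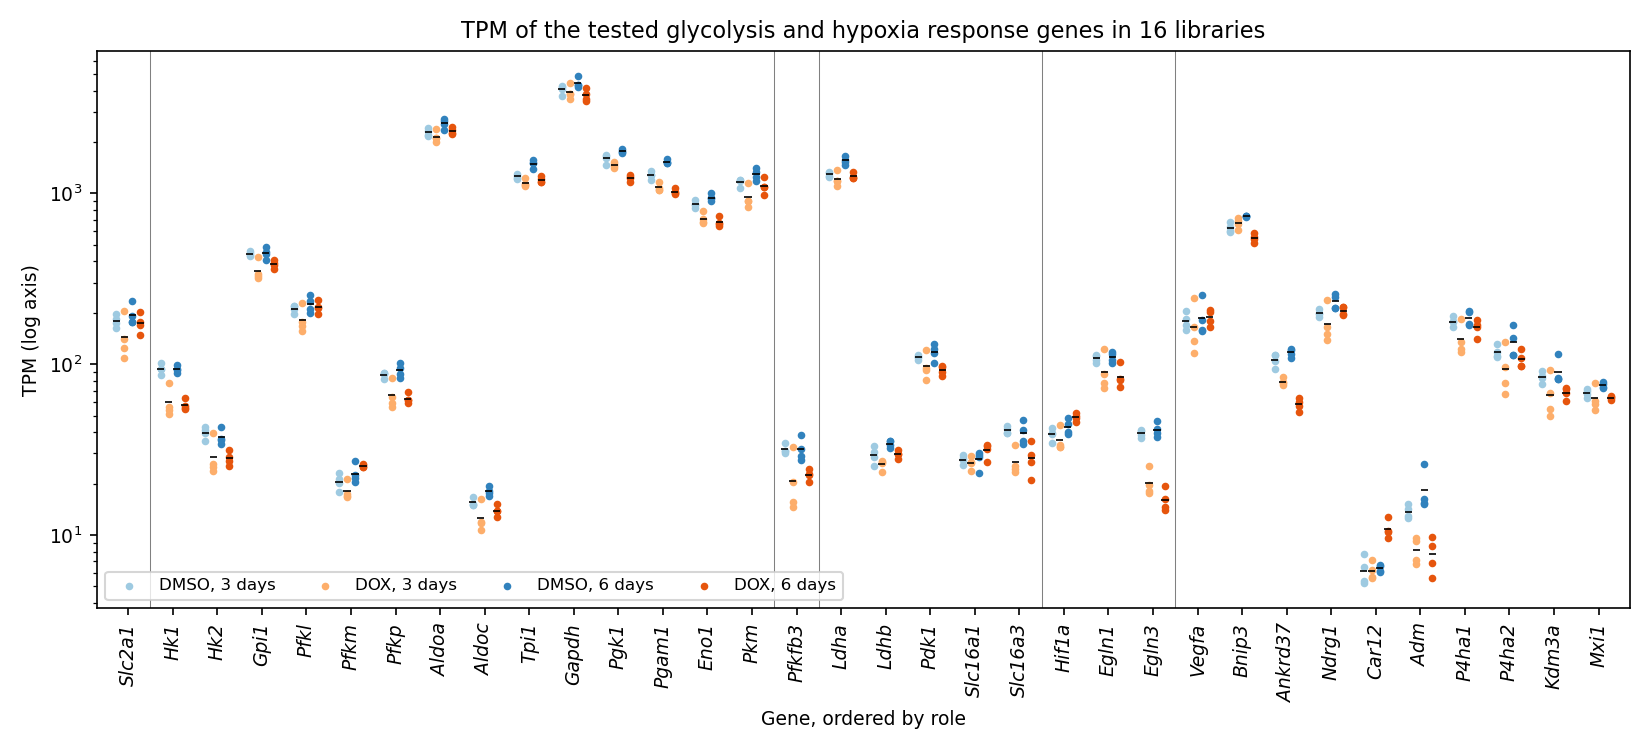
TPM (log axis) of the 34 tested genes in all 16 libraries, ordered by role from glucose uptake to HIF targets, with a point for each library and a short line for each group mean of 4 libraries. The enzymes from *Aldoa* to *Pkm* and *Ldha*, leaving out *Aldoc*, lie between 642 TPM (*Eno1*) and 4868 TPM (*Gapdh*), while *Car12* and *Adm* lie lowest.

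The windows just before the transcription start of 6 of the 10 genes called at 6 days are printed here, because HIF binds motifs in such windows. They are the HIF targets *Egln3* and *Adm*, the consecutive enzymes *Pgk1*, *Pgam1* and *Eno1*, and *Car12*, the only member called higher. They were chosen with their values known. For 33 of the 34 tested genes RefSeq gave the 250 bases before the start on GRCm38.p6, and 25 of these, or 75.8%, held ACGTG or GCGTG on either strand. The share was 57.9% of 9807 windows among all tested genes and 42.3% of 20505 windows among all genes. Within the list, 9 of 14 glycolytic enzymes and 8 of 11 HIF target genes had such a match. With ACGTG alone the count was 16 of 33, against 22.0% of all tested genes. It was 4 of 14 glycolytic enzymes, or 28.6%, and 6 of 11 HIF target genes, or 54.5%. Of the genes that were lower at 6 days of DOX, as described below, 8 of 9 held a match, as did 17 of 23 windows of genes that did not pass the test. A 5-base match is common, it overlaps the E-box CACGTG that other factors bind (in 5 of the 33 windows), and it is not evidence of a binding site. Capitals mark every match in either direction, and each window ends at the base before the RefSeq start, which in these 6 genes lay 0 to 52 bases from the 5′ end of the gene in GENCODE.
Egln3, chr12:54203875-54204124, minus strand: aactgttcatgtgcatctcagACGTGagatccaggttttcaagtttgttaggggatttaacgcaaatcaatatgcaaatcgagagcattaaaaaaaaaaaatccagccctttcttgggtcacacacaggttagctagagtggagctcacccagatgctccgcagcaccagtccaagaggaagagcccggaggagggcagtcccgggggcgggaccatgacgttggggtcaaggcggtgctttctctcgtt
Adm, chr7:110627407-110627656, plus strand: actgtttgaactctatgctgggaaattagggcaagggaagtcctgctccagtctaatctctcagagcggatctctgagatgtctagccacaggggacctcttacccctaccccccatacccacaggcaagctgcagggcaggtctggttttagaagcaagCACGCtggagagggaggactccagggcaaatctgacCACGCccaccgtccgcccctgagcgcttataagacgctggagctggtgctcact
Pgk1, chrX:106186850-106187099, plus strand: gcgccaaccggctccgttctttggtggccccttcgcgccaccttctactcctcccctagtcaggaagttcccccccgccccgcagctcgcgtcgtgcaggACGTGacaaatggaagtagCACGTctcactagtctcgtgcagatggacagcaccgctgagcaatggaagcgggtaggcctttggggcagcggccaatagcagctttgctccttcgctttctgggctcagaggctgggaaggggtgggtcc
Pgam1, chr19:41911621-41911870, plus strand: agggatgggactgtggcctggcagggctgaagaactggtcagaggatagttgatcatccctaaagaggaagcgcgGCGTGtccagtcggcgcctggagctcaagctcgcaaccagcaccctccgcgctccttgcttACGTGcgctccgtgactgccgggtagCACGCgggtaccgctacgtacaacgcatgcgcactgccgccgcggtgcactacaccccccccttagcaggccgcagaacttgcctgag
Eno1, chr4:150236458-150236707, plus strand: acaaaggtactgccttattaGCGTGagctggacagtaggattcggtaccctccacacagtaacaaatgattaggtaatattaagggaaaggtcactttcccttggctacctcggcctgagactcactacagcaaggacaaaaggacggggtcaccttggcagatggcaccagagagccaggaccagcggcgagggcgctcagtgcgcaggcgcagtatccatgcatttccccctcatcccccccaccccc
Car12, chr9:66713436-66713685, plus strand: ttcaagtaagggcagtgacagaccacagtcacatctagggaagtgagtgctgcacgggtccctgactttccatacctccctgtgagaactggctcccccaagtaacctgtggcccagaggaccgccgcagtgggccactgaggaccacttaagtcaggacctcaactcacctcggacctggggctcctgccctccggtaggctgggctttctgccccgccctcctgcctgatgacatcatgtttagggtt

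The window of *Pgk1* held 2 copies of ACGTG in opposite directions, that of *Pgam1* held 1 ACGTG and 2 GCGTG, and that of *Egln3* held 1 ACGTG far from the start. *Adm* had 2 GCGTG on the opposite strand and *Eno1* had 1 GCGTG. No match stood in the window of *Car12*, the only member called higher, nor in that of *Hk1*, which fell at both times. Of the other 3 called genes, *Ankrd37* held 2 ACGTG and 2 GCGTG, *Pfkp* 3 GCGTG and *Slc16a3* 2 ACGTG. The 2 GCGTG of *Ankrd37* overlap each other on opposite strands. The RefSeq starts of *Ankrd37*, *Slc16a3* and *Pfkp* lay 5857, 587 and 6 bases from the 5′ end of the gene in GENCODE. Their windows overlap exons of the same gene. Among the uncalled genes counted above, the starts of *Hif1a* and *Ldha* lay 6492 and 4329 bases away. Uncalled members with a positive log2 fold change at 6 days were *Slc16a1*, *Hif1a*, *Pfkm*, *Vegfa* and *Pfkl*. The windows of *Slc16a1*, *Hif1a* and *Pfkm* held ACGTG, that of *Pfkl* held GCGTG and that of *Vegfa* held no match.

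After 3 days of DOX few of these genes passed the test, and all that did were lower. They were the hexokinase *Hk1*, the lactate exporter *Slc16a3* and the prolyl hydroxylase *Egln3*, that is 3 of 34 or 8.82%, where 12.5% of all tested genes were called, 7.22% as lower and 5.3% as higher. A gene was called when edgeR's quasi-likelihood test against a 1.2-fold change gave an adjusted p (Benjamini-Hochberg over all 13234 genes) under 0.05. The share among the members was below that of all genes. The median log2 fold change was −0.06 over the 14 glycolytic enzymes and −0.12 over the 12 tested HIF targets, against 0.0031 over all tested genes. The 31 members not called ranged from −0.56 to 0.30. Without DOX replicate 1 of 3 days 5 members were called in place of 3. The calls over all tested genes rose as well, from 1658 of 13234 to 2297 of 13206. In that library 22 of the 34 genes were highest of their group. Other libraries also stood to one side of their group over the members: 25 were highest in DMSO replicate 1 of 3 days and 22 in DMSO replicate 1 of 6 days. In DMSO replicate 4 of 6 days 27 were lowest. So were 22 in each replicate 4 of 3 days and 20 in DOX replicate 3 of 6 days. The matching counts over all tested genes were not taken, so these numbers cannot be read as a trait of the members.

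After 6 days more of these genes were lower. Of 34 members 10 were called, or 29.4%, and 9 of them were lower, where 21.6% of all tested genes were called, 11.6% as lower and 10% as higher. The lower genes were the enzymes *Hk1*, *Pfkp*, *Pgk1*, *Pgam1* and *Eno1*, the exporter *Slc16a3* and the HIF targets *Egln3*, *Ankrd37* and *Adm*. *Car12* was higher. Glycolytic enzymes and HIF targets had close medians. Of the enzymes 5 of 14 were called, all lower, with a median log2 fold change of −0.29. Of the HIF targets 4 of 12 were called, 3 of them lower, with a median of −0.28, against −0.00064 over all tested genes. Without the 1.2-fold threshold the test called 7 of 34 members at 3 days, where it called 45.2% of all tested genes, and 23 of 34 at 6 days, beside 50.6%. With the threshold, the 24 members not called lay between −0.40 and 0.23 in log2 fold change. On the TPM scale the median of all tested genes itself moved by −0.15 in log2(TPM + 1) at 3 days and −0.05 at 6 days, and relative to that shift the enzymes moved by −0.11 and −0.28 and the HIF targets by −0.18 and −0.30. The sign of 11 uncalled members at 3 days and of *Pfkl* at 6 days turned on that scale, and after the shift was taken off it turned for *Ldhb*, *Pfkm* and *Vegfa* at 3 days only.

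**Figure D2:**
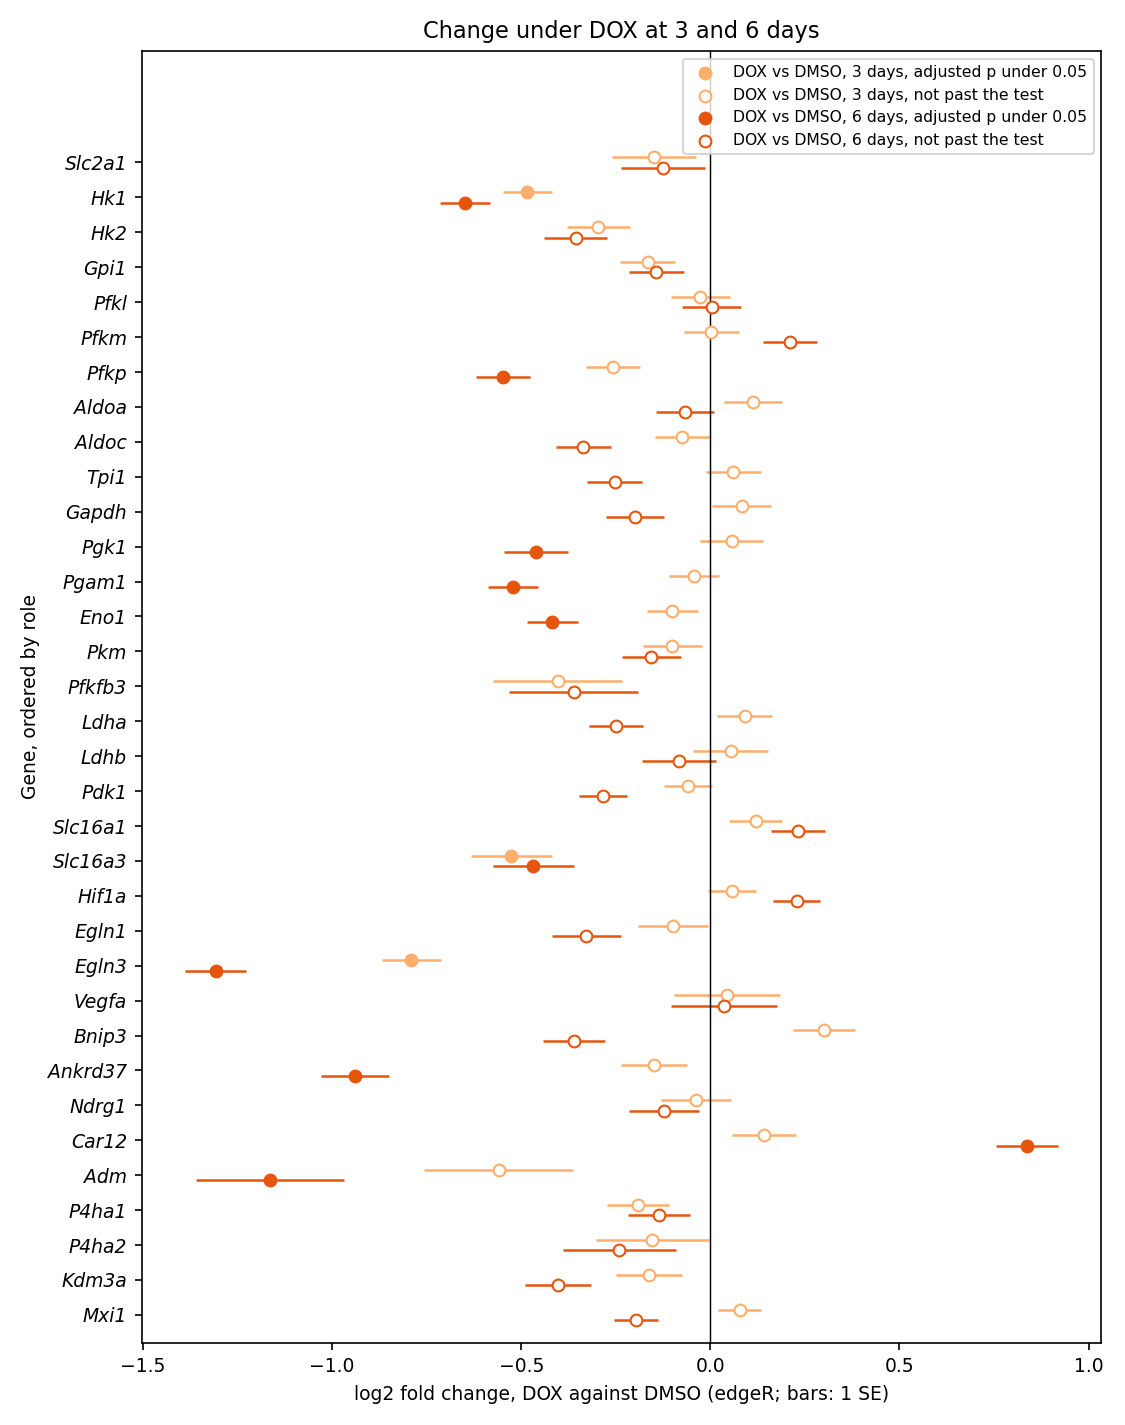
Log2 fold change of DOX against DMSO for the 34 tested genes at 3 days (pale) and 6 days (dark) from edgeR, with bars of 1 SE and filled points where the adjusted p was under 0.05. Most points of 6 days lie left of those of 3 days, and *Car12* alone is a filled point right of 0.

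*Hk1* encodes the hexokinase that phosphorylates glucose in most tissues (chr10:62268855-62379908, minus strand, GRCm38). Its levels were 301, 295, 285 and 290.0 CPM in the DMSO libraries of 3 days and 243, 200.4, 203 and 192 CPM in the DOX libraries. At 6 days they were 299.9, 279, 279 and 269 CPM in DMSO and 181, 169, 176 and 194 CPM in DOX. All DOX libraries lay below all DMSO libraries at each time. The log2 fold change was −0.48 ± 0.07 (SE) at 3 days (edgeR adjusted p = 0.0042) and −0.65 ± 0.07 at 6 days (adjusted p = 1.1e-05), and the difference between these was not past the test (adjusted p = 0.23). For *Hk2*, the hexokinase that HIF and insulin raise, the log2 fold changes of −0.30 ± 0.08 and −0.36 ± 0.08 did not pass the test, although at 6 days its groups did not overlap (adjusted p = 0.48 and 0.17). The share of *Hk1* in the summed TPM of both genes was 70.3% ± 0.559 and 71.5% ± 1.95 in DMSO and 67.8% ± 1.28 and 67.2% ± 0.962 in DOX (SD, n = 4).

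Of the phosphofructokinases, which catalyse the committing step, *Pfkp* alone was called (chr13:6579768-6648777, minus strand). At 6 days it had 256, 231, 250.5 and 227 CPM in DMSO against 173, 155, 155 and 177 CPM in DOX, without overlap. The log2 fold change was −0.55 ± 0.07 (edgeR adjusted p = 0.00065), compared with −0.26 ± 0.07 at 3 days (adjusted p = 0.70). *Pfkl*, the liver type, had 0.0032 ± 0.08 and *Pfkm*, the muscle type, 0.21 ± 0.07 at 6 days (adjusted p = 0.91 for *Pfkm*), and neither passed the test. *Pfkp* thereby went from 27.1% ± 0.995 of the summed phosphofructokinase TPM in DMSO to 20.6% ± 0.916 in DOX at 6 days, and *Pfkm* from 6.71% ± 0.284 to 8.35% ± 0.42. Part of the *Pfkp* transcripts lies opposite the gene *Pitrm1*.

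Between the hexose and triose steps little passed the test. The isomerase *Gpi1* had log2 fold changes of −0.17 ± 0.07 and −0.14 ± 0.07 at 3 and 6 days. For the aldolases these were 0.11 ± 0.08 and −0.07 ± 0.08 in *Aldoa* and −0.07 ± 0.07 and −0.34 ± 0.07 in *Aldoc*, whose mean share of aldolase TPM was 0.581% to 0.697% in the 4 groups. None of these values passed the test.

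The 3 enzymes that follow *Gapdh* in the pathway, *Pgk1*, *Pgam1* and *Eno1*, were lower at 6 days and not at 3 days. *Pgk1*, whose product makes the first ATP of glycolysis (chrX:106187100-106203699, plus strand), had 2656, 2365, 2316 and 1944 CPM in DMSO and 2228, 2493, 2514 and 2418 CPM in DOX at 3 days, and the groups overlapped. At 6 days it had 2414, 2543, 2456 and 2381 CPM in DMSO and 1929, 1731, 1671 and 1786 CPM in DOX. Every DOX library of 6 days was below every DMSO library. The log2 fold change was 0.06 ± 0.08 at 3 days, not past the test, and −0.46 ± 0.08 at 6 days (edgeR adjusted p = 0.019). Without DOX replicate 3 of 6 days, the lowest of its group, the adjusted p at 6 days was 0.059.

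*Pgam1* (chr19:41911923-41918660, plus strand) moves the phosphate on 3-phosphoglycerate. It had 1821, 1787, 1811 and 1611 CPM in DMSO and 1625, 1760.0, 1716 and 1719 CPM in DOX at 3 days, with overlap. At 6 days the values were 2034, 2084, 2053 and 1939 CPM in DMSO and 1485, 1386, 1339 and 1441 CPM in DOX. The 6-day DMSO libraries were the highest and the 6-day DOX libraries the lowest of all 16. It went from a log2 fold change of −0.04 ± 0.07, not past the test, to −0.52 ± 0.07 (edgeR adjusted p = 0.00069).

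*Eno1* (chr4:150236721-150248879, plus strand), the enolase of most tissues, had 1418, 1379, 1384 and 1229 CPM in DMSO and 1226, 1314, 1245 and 1261 CPM in DOX at 3 days. The 6-day values were 1506, 1476, 1386 and 1314 CPM in DMSO against 1088, 1019, 1039 and 1107 CPM in DOX. Only the groups of 6 days were apart. Its log2 fold changes were −0.10 ± 0.07, not past the test, and −0.42 ± 0.07 (edgeR adjusted p = 0.020). The 6-day call ended without DMSO replicate 2, DOX replicate 2 or DOX replicate 3 of 6 days (adjusted p = 0.057, 0.058 and 0.051). Summed with its near copy *Eno1b*, the enolase reads averaged 2006 ± 134 CPM in DMSO and 1521 ± 55.4 CPM in DOX at 6 days (SD, n = 4), a log2 ratio of −0.40.

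Of the other enzymes of the lower part, *Gapdh*, the most abundant member, and *Pkm* did not pass the test. *Gapdh*, often used as a reference gene, had 3169, 2912, 2708 and 2619.8 CPM in DMSO and 2551, 2405, 2395 and 2589 CPM in DOX at 6 days. Here too the DOX libraries were all lower, by a log2 fold change of −0.20 ± 0.08 (edgeR adjusted p = 0.95), after 0.08 ± 0.08 at 3 days. *Pkm* had −0.10 ± 0.08 and −0.16 ± 0.08. The TPM of all 14 glycolytic enzymes summed to 13435 ± 533 in DMSO and 12153 ± 984 in DOX at 3 days, and to 14969 ± 687 and 12102 ± 662 at 6 days (SD, n = 4). As a share of all TPM this was 1.35% ± 0.0532 and 1.22% ± 0.0986 at 3 days, and 1.5% ± 0.0679 and 1.21% ± 0.0662 at 6 days. These sums and shares are not corrected for the shift of all genes on the TPM scale. The median of all tested genes moved by −0.15 in log2(TPM + 1) at 3 days and by −0.05 at 6 days. In edgeR the median log2 fold change of the enzymes at 3 days was −0.06, so the lower sum at 3 days is not shown to be particular to them.

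**Figure D3:**
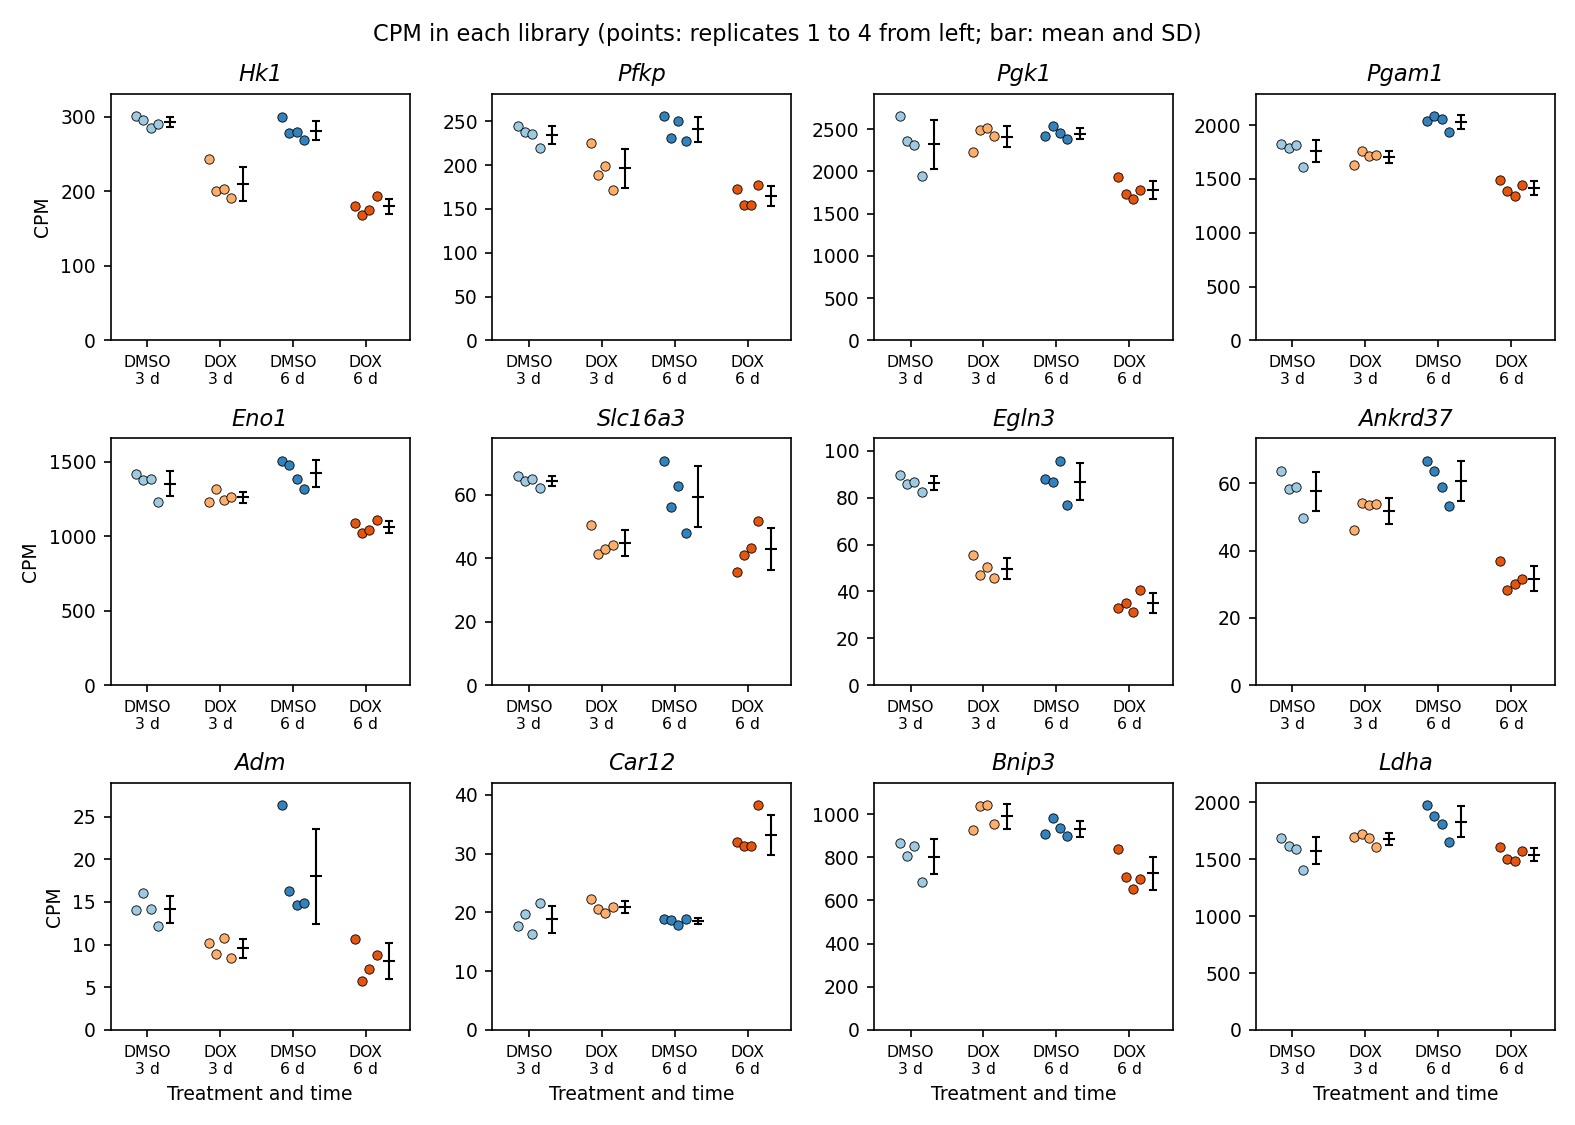
CPM in each library for the 10 genes called at 6 days and for *Bnip3* and *Ldha*, with points for replicates 1 to 4 from left to right in each group and a bar for the mean and SD of 4 libraries. Among the 10 called genes the DOX points of 6 days lie apart from the DMSO points of 6 days in 9 panels and overlap with them in that of *Slc16a3*. Genes called for a difference tend to lie apart, so this adds no support to the calls.

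Of the tested transporters around the pathway *Slc16a3* alone was called. It encodes MCT4, an exporter of lactate that HIF raises (chr11:120948480-120960868, plus strand). It had 66.0, 64.4, 65.0 and 62.2 CPM in DMSO and 50.6, 41.2, 43.0 and 44.1 CPM in DOX at 3 days, all DOX libraries being lower. By 6 days the values were 70.7, 56.2, 62.8 and 47.8 CPM in DMSO and 35.6, 41.1, 43.1 and 51.8 CPM in DOX, where DOX replicate 4 was above DMSO replicate 4. The log2 fold changes were −0.53 ± 0.11 (edgeR adjusted p = 0.025) and −0.47 ± 0.11 (adjusted p = 0.044). Of the calls at 3 and 6 days these were lost in the most settings. DESeq2 gave adjusted p = 0.18 and 0.29 and limma on log2(TPM + 1) 0.12 and 0.35. The 3-day call ended without DOX replicate 2, 3 or 4 of 3 days (adjusted p = 0.077, 0.062 and 0.054). The 6-day call ended without DMSO replicate 1 or 3 of 6 days (0.17 and 0.096), DOX replicate 1, 2 or 3 of 6 days (0.15, 0.089 and 0.069) or DOX replicate 4 of 3 days (0.051).

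*Slc16a1*, the transporter MCT1, had log2 fold changes of 0.12 ± 0.07 and 0.23 ± 0.07, not past the test, although its DOX libraries lay above those of DMSO at 6 days. *Slc16a3* made up 59.8% ± 1.49 of the summed TPM of both transporters in DMSO and 50.0% ± 2.96 in DOX at 3 days, and 58.6% ± 6.2 and 46.9% ± 3.73 at 6 days. *Slc2a1*, the GLUT1 glucose transporter, had −0.15 ± 0.11 and −0.13 ± 0.11. *Pfkfb3*, which makes the activator of phosphofructokinase, had −0.40 ± 0.17 and −0.36 ± 0.17, with an SD in DOX at 3 days of 25.1 CPM on a mean of 78.7 CPM. None of these 3 genes passed the test.

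At the fork of pyruvate no gene passed the test at either time. *Ldha*, which reduces pyruvate to lactate, had 1686, 1620.3, 1594 and 1408 CPM in DMSO and 1698, 1723, 1689 and 1608 CPM in DOX at 3 days. By 6 days these were 1974, 1884, 1814 and 1655 CPM in DMSO and 1609.6, 1499, 1486 and 1569.8 CPM in DOX, without overlap. The log2 fold change was 0.09 ± 0.07 and then −0.25 ± 0.07 (edgeR adjusted p = 0.68). *Pdk1*, the kinase that holds pyruvate back from the mitochondrion, had −0.06 ± 0.06 and −0.28 ± 0.06 (adjusted p = 0.44 at 6 days). *Ldhb*, which favours the reverse reaction, had 0.05 ± 0.10 and −0.08 ± 0.10 and 2.12% to 2.31% of lactate dehydrogenase TPM in the group means.

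**Figure D4:**
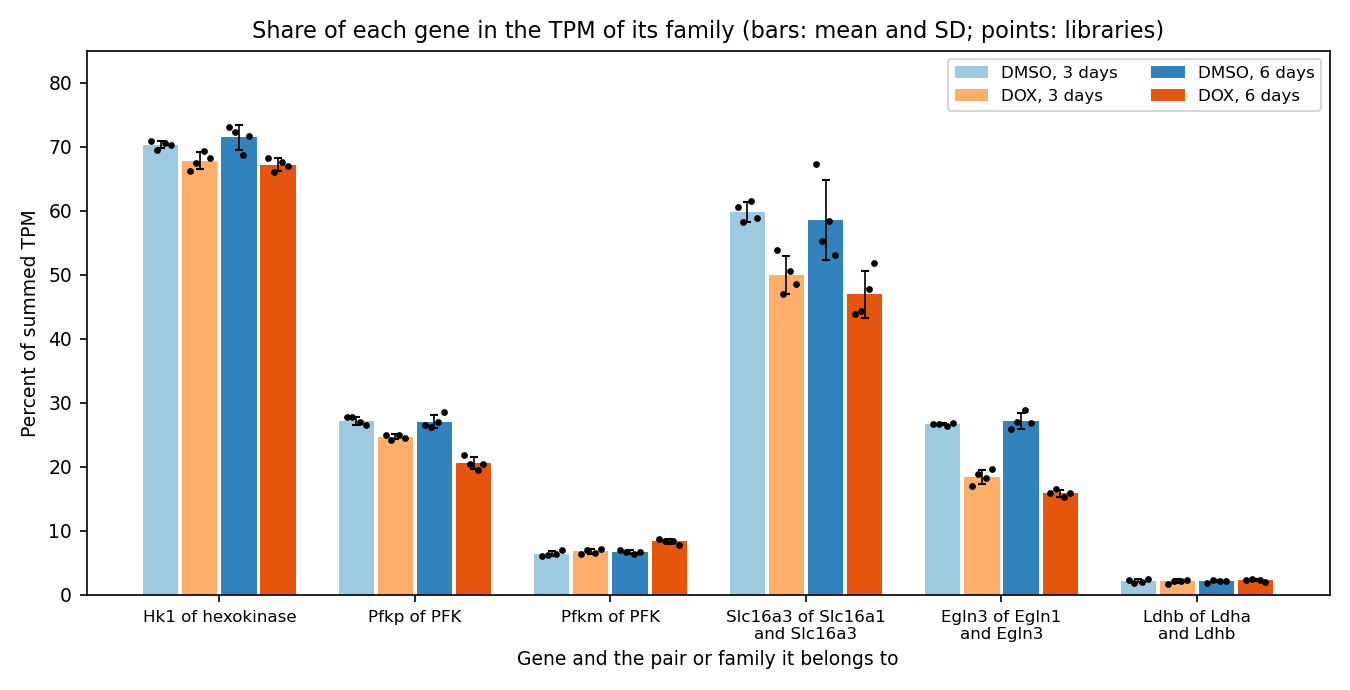
Percent that a gene takes of the summed TPM of its pair or family in the 4 groups, with bars for the mean and SD of 4 libraries and a point for each library. *Pfkp* and *Egln3* take smaller shares in DOX than in DMSO, lowest at 6 days (20.6% and 15.9%), and the group means of *Ldhb* lie between 2.12% and 2.31%.

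Among the sensors of the HIF pathway, *Egln3* changed most of all members. It encodes PHD3, a prolyl hydroxylase that is itself a HIF target (chr12:54178981-54203860, minus strand). It had 89.7, 85.9, 86.7 and 82.3 CPM in DMSO and 55.7, 47.2, 50.3 and 45.9 CPM in DOX at 3 days. The libraries of 6 days had 87.8, 86.9, 95.8 and 76.7 CPM in DMSO and 33.1, 34.9, 31.4 and 40.8 CPM in DOX. No DOX library reached any DMSO library at either time, and the libraries of 6 days of DOX were all below those of 3 days. On the log2 scale it changed by −0.79 ± 0.08 at 3 days (edgeR adjusted p = 6.3e-06) and −1.31 ± 0.08 at 6 days (adjusted p = 3.6e-10).

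*Egln1*, the main oxygen sensor PHD2, had log2 fold changes of −0.10 ± 0.09 and −0.33 ± 0.09, neither past the test (adjusted p = 0.29 at 6 days). *Egln3* thus supplied 26.7% ± 0.183 of the summed TPM of *Egln1* and *Egln3* in DMSO and 18.5% ± 1.09 in DOX at 3 days. At 6 days its share was 27.2% ± 1.19 and 15.9% ± 0.541. A further gene of the EGLN family, *Egln2*, is not in this sum and had 45.5 to 51.3 CPM in the group means. *Hif1a*, whose protein rather than RNA is set by oxygen, had 0.06 ± 0.06 and 0.23 ± 0.06 (adjusted p = 0.84 at 6 days).

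*Ankrd37*, a small ankyrin repeat gene that HIF-1 raises (chr8:45996902-46005707, minus strand), had 63.7, 58.2, 58.8 and 49.8 CPM in DMSO and 46.0, 54.0, 53.6 and 53.8 CPM in DOX at 3 days. The libraries of 6 days had 66.7, 63.6, 58.9 and 53.3 CPM in DMSO and 36.8, 28.3, 30.1 and 31.5 CPM in DOX. The groups overlapped at 3 days and stood well apart at 6 days. This gave log2 fold changes of −0.15 ± 0.09, not past the test, and −0.94 ± 0.09 (edgeR adjusted p = 5.5e-07). *Ankrd37* overlaps *Ufsp2* on the opposite strand, and 19.0% of its 31-base words occur in Lrp2bp, which held few counts.

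*Adm*, the vasodilator peptide adrenomedullin (chr7:110627661-110629820, plus strand), was a low transcript. It had 14.1, 16.1, 14.1 and 12.2 CPM in DMSO and 10.2, 8.89, 10.8 and 8.41 CPM in DOX at 3 days. After 6 days there were 26.3, 16.3, 14.6 and 14.9 CPM in DMSO and 10.6, 5.75, 7.16 and 8.74 CPM in DOX. DOX libraries were below DMSO libraries at each time, and DMSO replicate 1 of 6 days was well above the others of its group. Its log2 fold change was −0.56 ± 0.20 at 3 days (edgeR adjusted p = 0.16, not past the test) and −1.16 ± 0.20 at 6 days (adjusted p = 0.00069). Over the fits that left out 1 library, the value at 6 days ran from −1.32 to −0.93 and stayed past the test.

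*Car12*, a membrane carbonic anhydrase that HIF raises in other cells, went the other way (chr9:66713686-66766845, plus strand). It had 17.7, 19.8, 16.3 and 21.6 CPM in DMSO and 22.3, 20.5, 19.9 and 20.9 CPM in DOX at 3 days. At 6 days it had 18.9, 18.8, 17.8 and 18.9 CPM in DMSO and 31.9, 31.3, 31.3 and 38.2 CPM in DOX. Every DOX library of 6 days was above every other library. On the log2 scale the difference was 0.14 ± 0.08, not past the test, and then 0.84 ± 0.08 (edgeR adjusted p = 1.3e-06).

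The other 8 tested HIF targets, *Egln1* among them, did not pass at either time. *Bnip3* is the case in which the 2 times differed most: it had 867, 807, 851 and 686 CPM in DMSO and 926, 1036, 1040.3 and 954 CPM in DOX at 3 days. At 6 days it had 909.7, 982, 934 and 896 CPM in DMSO and 837, 708, 655 and 700.3 CPM in DOX. All DOX libraries were higher than DMSO at 3 days and all were lower at 6 days, with log2 fold changes of 0.30 ± 0.08 (edgeR adjusted p = 0.46) and −0.36 ± 0.08 (adjusted p = 0.15). Together with its near copy *AC160336.1* the log2 ratios of the means were 0.23 and −0.39. The copy alone had −0.27 and −0.64, and so went the other way from *Bnip3* at 3 days.

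*Vegfa*, the angiogenic growth factor, had log2 fold changes of 0.04 ± 0.14 at both times. For *Ndrg1*, a stress-responsive gene, they were −0.04 ± 0.09 and −0.12 ± 0.09. The collagen prolyl hydroxylases had −0.19 ± 0.08 and −0.14 ± 0.08 in *P4ha1* and −0.15 ± 0.15 and −0.24 ± 0.15 in *P4ha2*. The histone demethylase *Kdm3a* had −0.16 ± 0.09 and −0.40 ± 0.09 (edgeR adjusted p = 0.078 at 6 days), and *Mxi1*, an antagonist of MYC, 0.08 ± 0.06 and −0.20 ± 0.06. The spread of several of these genes was wide in DOX at 3 days. *Vegfa* had 366, 246, 287 and 221 CPM there, and 9 of the 12 HIF targets were highest in replicate 1 and 9 were lowest in replicate 4. For these counts, too, no share over all tested genes was taken.

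Whether the DOX effect differed between 3 and 6 days was tested directly, as an interaction without a fold threshold. It did so in 10 of 34 members, or 29.4%, of which 9 had a lower log2 fold change at 6 days than at 3 days, against 17% of all tested genes, 9.58% in that direction and 7.44% in the other. The 9 were *Tpi1*, *Pgk1*, *Pgam1* and *Eno1* of the lower enzymes, *Ldha*, and the HIF targets *Egln3*, *Bnip3*, *Ankrd37* and *Mxi1*, and the remaining gene was *Car12*. The largest differences were −0.79 ± 0.12 in *Ankrd37* (edgeR adjusted p = 0.00062), 0.69 ± 0.12 in *Car12* (adjusted p = 0.00094), −0.66 ± 0.12 in *Bnip3* (adjusted p = 0.0012), −0.52 ± 0.11 in *Egln3* (adjusted p = 0.0046) and −0.52 ± 0.12 in *Pgk1* (adjusted p = 0.0065). *Hk1* and *Slc16a3*, called at both times, had differences of −0.16 ± 0.09 and 0.06 ± 0.15 that did not pass. Of these 10 genes *Pgam1*, *Bnip3* and *Mxi1* were higher in all DMSO libraries of 6 days than in all of 3 days. Their log2 differences were 0.21 ± 0.07, 0.21 ± 0.08 and 0.11 ± 0.06, none past the test. The share of all tested genes that lay apart in this way was not taken, so it cannot be read as a trait of these members. In *Ldha* and *Tpi1* the DMSO groups overlapped, with log2 differences of 0.22 ± 0.07 and 0.19 ± 0.07, not past the test. The rest of the 10 genes ranged from −0.03 in *Car12* to 0.08 in *Pgk1*. Such shifts in DMSO enter the difference between times together with those in DOX.

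The number of members that differed between times moved with the setting. DESeq2 called 13, with *Gapdh*, *Pdk1* and *Pfkp* added, and 19.4% of all tested genes. The count was 6 without DMSO replicate 4 of 3 days, without DOX replicate 2 of 6 days or without DOX replicate 3 of 6 days, and 5 on the TPM scale, where the interaction of all tested genes had a median of 0.10. Calls over all tested genes fell in these settings too, from 2252 to 1370, 1683, 1527 and, on log2(TPM + 1), 659. *Ankrd37*, *Bnip3* and *Car12* were the members that remained past a 1.2-fold threshold. *Tpi1* lost the call most often, in 16 of 27 settings. It had 1647, 1581, 1556 and 1394 CPM in DMSO and 1527, 1675, 1619 and 1624 CPM in DOX at 3 days, and 1792, 1868, 1816 and 1576 CPM in DMSO and 1540.2, 1460.4, 1413 and 1504 CPM in DOX at 6 days, log2 fold changes of 0.06 ± 0.07 and −0.25 ± 0.07. Only the groups of 6 days were apart, as they were for *Mxi1*, with 146, 143, 149 and 141 CPM in DMSO and 137, 124, 119 and 125 CPM in DOX then, after 138, 134, 138 and 127 CPM and 156, 138, 144 and 129.9 CPM at 3 days.

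Leaving out a single library ended the call of a difference between times in 4 of these genes, with adjusted p from 0.050 to 0.088. *Tpi1*, *Mxi1*, *Ldha* and *Eno1* each lost it without DMSO replicate 4 of 3 days, DOX replicate 2 of 6 days or DOX replicate 3 of 6 days. Without DMSO replicate 2 of 6 days or DOX replicate 2 of 3 days it was lost for *Tpi1*, *Ldha* and *Eno1*, and without DOX replicate 3 of 3 days for *Tpi1*, *Mxi1* and *Ldha*. *Tpi1* lost it also without DMSO replicate 2 or 3 of 3 days, DOX replicate 4 of 3 days, DMSO replicate 3 of 6 days or DOX replicate 4 of 6 days. The other 6 genes kept the call without any single library.

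Between DMSO at 6 days and DMSO at 3 days edgeR called 0 of 34 members, and 0% of all tested genes. The members' log2 fold changes lay between −0.13 for *Hk2* and 0.35 for *Adm* with a median of 0.07, and none had an unadjusted p under 0.05. DESeq2 and limma on log2(TPM + 1) also called 0 members.

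Other genes of the same pathways, from lists of general knowledge, were called in both directions. Of 27 tested further genes of glycolysis, gluconeogenesis and pyruvate use, the test passed 3 at 3 days (1 higher) and 7 at 6 days (3 higher), with medians of 0.08 and −0.11. *Slc2a2*, a glucose transporter near the limit of detection, was called lower at 6 days (log2 fold change −1.28 ± 0.41, edgeR adjusted p = 0.035). It had 1.35 ± 0.927 CPM in DMSO and 0.557 ± 0.232 CPM in DOX. No DOX library of either time was above 0.804 CPM, so *Slc2a2* passed the CPM filter through DMSO libraries alone. Its call therefore carries little weight. Also called at 6 days was *Pck2*, the mitochondrial phosphoenolpyruvate carboxykinase. *Pck2* rose from 122 ± 5.22 to 190.3 ± 11.6 CPM at 3 days and from 124 ± 11.1 to 218 ± 4.72 CPM at 6 days, log2 fold changes of 0.64 ± 0.06 (edgeR adjusted p = 1.6e-05) and 0.81 ± 0.06 (adjusted p = 4.5e-08).

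The test passed 2 of 14 further HIF factors and oxygen sensors at 3 days and 3 at 6 days. *Hif3a*, an alpha subunit that can oppose the others, fell by 0.98 on the log2 scale at 3 days and by 1.39 at 6 days (edgeR adjusted p = 0.00019 and 9.3e-07), from 11.6 ± 0.807 to 5.92 ± 1.13 CPM and from 10.2 ± 1.47 to 3.9 ± 0.875 CPM. *Epas1*, which encodes HIF-2α, was low, at 2.62 ± 0.545 CPM in DMSO and 1.2 ± 0.307 CPM in DOX at 3 days (log2 fold change −1.12 ± 0.22, edgeR adjusted p = 0.0030). At 6 days it had 2.36 ± 0.517 and 1.55 ± 0.222 CPM and did not pass the test (−0.62 ± 0.21, adjusted p = 0.089). *Arnt2*, an alternative partner subunit, was higher at 6 days (0.98 ± 0.22, edgeR adjusted p = 0.0057). It too was low, at 1.28 ± 0.203 CPM in DMSO and 2.54 ± 0.404 CPM in DOX, near the filter level of 1 CPM. *Cited2*, an inhibitor of HIF at its coactivator, was lower at 6 days (−0.45 ± 0.05, edgeR adjusted p = 0.0016).

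The test passed 2 of 29 further HIF target genes at 3 days and 8 at 6 days, 7 of these lower, with medians of −0.05 and −0.27. *Stc2*, a secreted glycoprotein that also responds to other stresses, rose from 27.9 ± 3.49 to 71.1 ± 8.7 CPM at 6 days (log2 fold change 1.35 ± 0.10, edgeR adjusted p = 7.2e-09). The vasoconstrictor peptide gene *Edn1* (−0.84 ± 0.09, adjusted p = 7.4e-06) and the transferrin receptor *Tfrc* (−0.74 ± 0.09, adjusted p = 3.1e-05) were lower. The called shares of these 3 lists were 11.1%, 14.3% and 6.90% at 3 days, beside 12.5% of all tested genes, and 25.9%, 21.4% and 27.6% at 6 days, beside 21.6%. The 7 lower HIF targets stand beside 11.6% of all tested genes called lower at 6 days.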

How the data were processed

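Polyadenylated RNA of 16 libraries was sequenced as read pairs from a directional library kit. Per the labels, the authors aligned reads to GRCm38.p6 with STAR 2.6.0c, and they quantified transcripts with salmon (a version is not given here). The deposited values are estimated counts per gene, without normalization, and TPM. All 54393 gene identifiers matched GENCODE M21, from which positions were taken. The symbol *Aldoa* has a second identifier with 25 to 107 counts per library, and the one with the higher TPM was used. The members and gene lists were chosen with earlier results of these data known.

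Counts were rounded, and genes under a CPM of 1 in more than 12 of the 16 libraries were dropped. A robust quasi-likelihood model with TMM scaling and 1 mean per group was fitted to all 16 libraries in edgeR 4.0.16 (R 4.3.3). DOX was compared with DMSO at each time, and DMSO between times, by glmTreat against a 1.2-fold change. The difference between the DOX effects was tested by glmQLFTest. Tests were two-sided with Benjamini-Hochberg adjustment over all 13234 genes and a limit of 0.05. The SE was taken as the log2 fold change divided by the square root of F. CPM values are TMM-scaled. All 36 genes are named, with values by library for those called. Promoter windows came from RefSeq. The calculations were tested on simulated counts. Alternatives were DESeq2 1.42.0, limma 3.58.1 on TPM, RLE scaling, other filters and thresholds, a replicate block, a length and GC correction, only the 8 libraries of a comparison, and leaving out each library.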

Additional observations from a re-analysis of the deposited data

Results flagged for a closer look

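The effect of DOX differed between 3 and 6 days in 10 genes, by the log2 fold change at 6 days minus that at 3 days (edgeR quasi-likelihood test, adjusted over all genes). It was −0.79 for *Ankrd37*, −0.66 for *Bnip3*, −0.52 for *Egln3*, −0.52 for *Pgk1*, −0.48 for *Pgam1*, −0.34 for *Ldha*, −0.32 for *Eno1*, −0.31 for *Tpi1* and −0.27 for *Mxi1*, and 0.69 for *Car12*, with adjusted p from 0.00062 to 0.037. In *Bnip3* the direction in CPM turned, from higher in all DOX libraries of 3 days to lower in all of 6 days. Neither change passed the test by itself (edgeR adjusted p = 0.46 and 0.15). In TPM the groups of 3 days overlapped, at 591 to 682 in DMSO and 607 to 721 in DOX.

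In 10 of 136 sets of 4 libraries, 1 library stood apart from the other 3 by Dixon's test on log2 CPM, which chance alone gives in about 1 of 20 sets. In DMSO at 3 days *Pgam1* was low in replicate 4 (1611 CPM, the others 1787 to 1821). In DOX at 3 days replicate 1 was low for *Ldhb* (22.2 CPM, the others 29.6 to 31.1) and *Ankrd37* (46.0 CPM, the others 53.6 to 54.0). In DMSO at 6 days *Slc16a1* was low in replicate 1 (83.7 CPM, the others 105 to 109), and replicate 3 was high for *Hk2* (192 CPM, the others 161 to 165) and low for *Car12* (17.8 CPM, the others 18.8 to 18.9). In DOX at 6 days replicate 4 was high for *Pfkl* (691 CPM, the others 623 to 633), *Egln1* (299 CPM, the others 241 to 243) and *Car12* (38.2 CPM, the others 31.3 to 31.9), and *Ndrg1* was low in replicate 3 (449 CPM, the others 491 to 496).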

How the results depend on the processing

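The call of *Hk1*, *Egln3*, *Pfkp*, *Pgam1*, *Ankrd37*, *Adm* and *Car12* at 3 or 6 days was kept under all 28 alternatives, with the direction unchanged, and no called value of any gene turned its sign. Without a fold-change threshold 7 of 34 members were called at 3 days and 23 at 6 days (45.2% and 50.6% of all tested genes). Leaving out 1 library gave 2 to 5 members at 3 days, 7 to 11 at 6 days and 6 to 12 for the difference between times. Over all tested genes the calls in these fits ran from 1366 to 2297, from 2537 to 3057 and from 1370 to 3788. That difference was called in 5 members on log2(TPM + 1) and in 5 on log2(TPM + 0.1), in 3 with a 1.2-fold threshold and in 6 without a filter beyond 1 count, and apart from the threshold the cause was not tested. Over all genes these settings called 659 of 13180, 631 of 13180, 183 of 13234 and 2237 of 34114, beside 2252 of 13234 in the main fit. On log2(TPM + 1) and log2(TPM + 0.1) the median at 3 days was −0.264 and −0.266 for glycolytic enzymes and −0.330 and −0.332 for HIF targets, where the median of all genes moved as well (−0.149 on log2(TPM + 1)). With ACGTG alone 16 of 33 windows held a match, which the shorter list of motifs implies. All 10 genes with the highest TPM were also the 10 with the highest CPM per annotated length.

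Over all tested genes, libraries with the same replicate number did not on average deviate together. The mean correlations of their deviations from the group means were −0.113 between the DMSO groups and −0.0981 between the DOX groups. Between DMSO and DOX they were −0.0955 and −0.121 at 3 and 6 days, and single pairs ran from −0.43 to 0.18. Over the 34 members the median log2 deviation of replicate 1 was 0.06 and 0.13 in DMSO and DOX at 3 days. At 6 days it was 0.11 and 0.04. For replicate 4 these values were −0.08, −0.09, −0.15 and 0.05. Whether the members deviate together by replicate number was not tested. With the replicate number as a block 3, 10 and 9 members were called at 3 days, at 6 days and for the difference. Over all 13234 tested genes 1570, 2767 and 1768 were called. At 6 days *Kdm3a* was then called (edgeR adjusted p = 0.041) and *Slc16a3* was not (0.063), and *Tpi1* was not called for the difference (0.055). The length and GC correction with this replicate block gave 4, 10 and 12 members, and 1608, 2999 and 1955 of all tested genes. Near copies of *Gapdh*, *Eno1* and *Bnip3* limit how far reads can be assigned to them, and *Adm* and *Car12*, at 5.75 to 38.2 CPM, rest on the fewest reads of the called genes.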
